A study of Rattus norvegicus with 20 samples.

Results

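Transcripts of ATF4 and of the serine and asparagine synthesis enzymes were followed in rat liver after repeated oral dosing with IDDP (isodecyl diphenyl phosphate), a phosphate ester that serves as a flame-retardant plasticiser. The group held 10 genes, taken as every probe set that the array annotation maps to exactly 1 of the symbols Atf4, Asns, Psat1, Phgdh, Psph, Trib3, Ddit4, Ddit3, Sesn2 and Fgf21. These were 13 of the 31042 probe sets tested, or 10 of 14217 distinct gene symbols. Trib3 had 3 probe sets and Sesn2 had 2, and each other gene had 1. Where a gene had several, the probe set with the highest mean level stands for it unless another is named.

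All 20 animals were male Harlan Sprague Dawley rats that received corn oil by gavage once a day on 4 days and were killed on day 5, and their ages were not given in the sources used here. IDDP in the oil was given at 66, 132, 263.6, 527.1 or 1054.2 mg/kg (0.169 mmol/kg at the lowest dose and 2.7 mmol/kg at the highest), with 3 rats at each dose, and 5 control rats received the oil alone. RNA from pieces of the left liver lobe of each rat was hybridised to 1 Affymetrix array, which reports a log2 intensity per probe set. A level below is that log2 value, a change is a difference of log2 group means with its standard error (SE), and a change passed where its limma p, adjusted over all tested probe sets, was under 0.05.

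ATF4 is a transcription factor whose mRNA is translated more efficiently when eIF2alpha is phosphorylated, as happens under amino acid shortage, endoplasmic reticulum stress, haem deficiency or viral infection. Its known targets include the enzymes that make serine from a glycolytic intermediate (Phgdh, Psat1 and Psph, in that order), asparagine synthetase (Asns), and genes that restrain growth signalling or further ATF4 activity. In liver the same programme is known to raise the hormone FGF21, which PPARalpha also induces during fasting. Because ATF4 is regulated largely at translation, its mRNA level does not measure its protein.

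ATF4 binds, with C/EBP partners, a composite element whose core can be written TGATGNAA. This motif was looked for on both strands of the 250 bases before the start of each of the 10 genes, using RefSeq windows on the assembly GRCr8. Of all 33469 such windows, 1139 (3.40%) held it. Among the 10 genes, Trib3 and Fgf21 had 1 match each and the other 8 had none. For Asns and Psat1 the start that the window precedes lies 555 and 779 bases inside the RefSeq gene span, so the bases before the 5′ end of that span were not searched. The windows of the 2 genes with a match are shown with that of Phgdh, a gene without one, each read 5′ to 3′ on the gene's strand, with the match in capitals as it reads on that strand (the reverse complement of the motif). The Trib3 window is chr3:161275534-161275783 (minus strand), with the match 21 to 14 bases before the start, and the Fgf21 window is chr1:105221377-105221626 (minus strand), with the match 143 to 136 bases before it. The Phgdh window is chr2:188624790-188625039 (minus strand).
Trib3: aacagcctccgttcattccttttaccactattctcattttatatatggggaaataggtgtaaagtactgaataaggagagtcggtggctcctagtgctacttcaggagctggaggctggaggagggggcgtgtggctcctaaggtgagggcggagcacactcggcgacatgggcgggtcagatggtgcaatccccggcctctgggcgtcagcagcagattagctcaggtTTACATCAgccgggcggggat
Fgf21: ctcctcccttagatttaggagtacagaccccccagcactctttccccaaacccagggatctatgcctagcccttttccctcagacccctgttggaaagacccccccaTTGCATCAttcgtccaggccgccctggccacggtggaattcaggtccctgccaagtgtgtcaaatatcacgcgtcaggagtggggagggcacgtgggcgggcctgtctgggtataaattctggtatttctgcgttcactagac
Phgdh: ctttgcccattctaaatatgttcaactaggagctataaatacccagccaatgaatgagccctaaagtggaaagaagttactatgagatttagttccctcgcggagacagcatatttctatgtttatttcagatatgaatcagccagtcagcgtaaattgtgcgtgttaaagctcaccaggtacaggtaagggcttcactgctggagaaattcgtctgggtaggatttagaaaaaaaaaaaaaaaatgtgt

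The arrays resembled each other closely, with medians between 6.32 and 6.41 and pairwise correlations between 0.977 and 0.996 over probe sets. Liver identity was clear: 9 of 9 hepatocyte markers had mean control levels between 12.6 and 15.3, against a median of 6.37 over the means of all probe sets. RNA quality was read as the 3′ minus 5′ difference of the array's control probe sets for the housekeeping genes Actb and Gapdh. It averaged 1.68 ± 0.11 at 1054.2 mg/kg (SD, n = 3) and 1.64 ± 0.27 in controls (SD, n = 5), and was highest in 132 mg/kg replicate 2 (3.25) and 263.6 mg/kg replicate 2 (2.47).

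At 1054.2 mg/kg, 9 of the 13 probe sets, which stand for 7 of the 10 genes, rose and 0 fell. Over all probe sets, 1.86% rose and 1.44% fell. The median change over the 10 genes was 0.96, and over all probe sets it was -0.005. The genes that rose were Atf4, Asns, Psat1, Phgdh, Psph, Trib3 and Ddit4. Ddit3, Sesn2 and Fgf21 did not pass. In pieces of whole liver, a change in the number of cells of a type and a change in RNA per cell cannot be told apart.

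**Figure D1:**
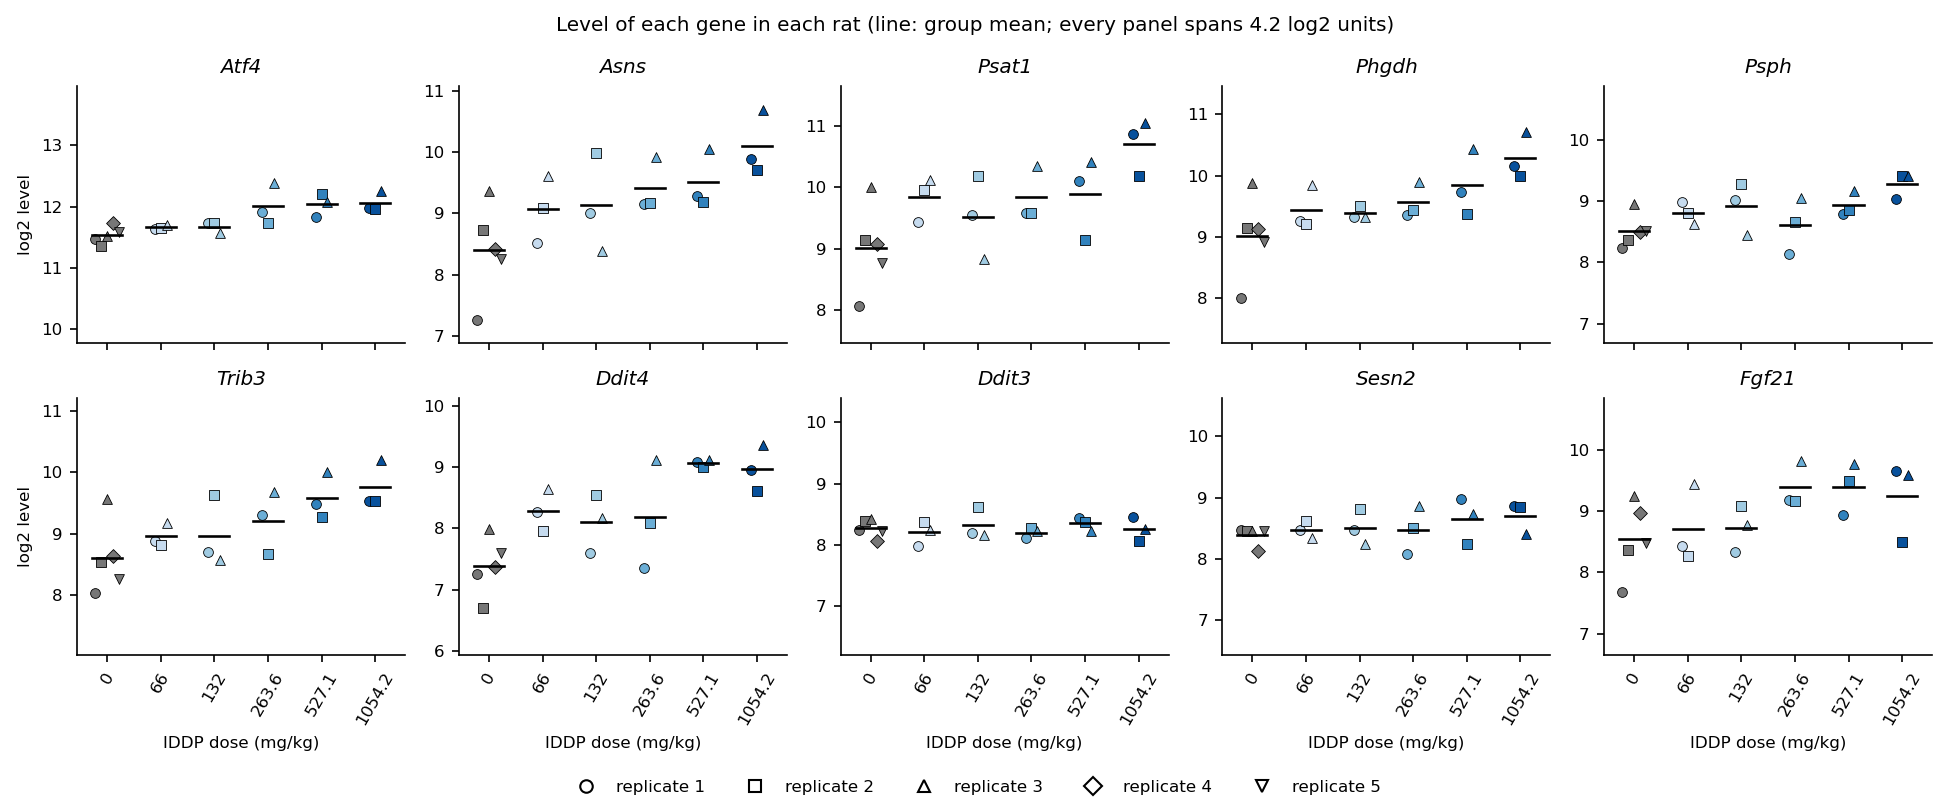
Log2 level (vertical axis) of each gene in each rat by IDDP dose in mg/kg (0 is the corn oil control), with a line at the group mean and a marker shape for each replicate number. Asns, Psat1 and Phgdh spread widely between control rats and lie above every control rat at 1054.2 mg/kg, while Ddit3 stays between 7.98 and 8.62 in all 20 rats.

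Atf4 mRNA moved the least of the genes that rose. Its levels were 11.98, 11.96 and 12.26 at 1054.2 mg/kg, against 11.47, 11.36, 11.52, 11.73 and 11.59 in controls. All 3 dosed rats lay above the highest control. The change was 0.53 ± 0.13 (adjusted p 0.0223), a 1.45-fold difference. The 527.1 mg/kg rats had 11.83, 12.21 and 12.08, again above all controls, with a change of 0.51 ± 0.13 (adjusted p 0.0449). At 263.6 mg/kg the levels of 11.92, 11.73 and 12.38 also lay above the highest control, replicate 2 by less than the last digit given, and the change of 0.48 ± 0.13 did not pass (adjusted p 0.10). At 66 and 132 mg/kg the group means were 11.67 ± 0.04 and 11.68 ± 0.09 (SD, n = 3), against 11.53 ± 0.14 in controls (SD, n = 5). The 263.6 and 132 mg/kg rats were barely apart (lowest 11.7323 and highest 11.7312), and each other pair of neighbouring doses overlapped. The step between 132 and 263.6 mg/kg was not itself tested.

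The 3 serine synthesis enzymes rose together at the highest dose. Phgdh encodes phosphoglycerate dehydrogenase, which commits the glycolytic intermediate to serine. Its levels were 10.15, 10.00 and 10.71 at 1054.2 mg/kg, against 8.01, 9.14, 9.87, 9.13 and 8.92 in controls. The groups did not overlap, and the change was 1.27 ± 0.30 (2.42-fold, adjusted p 0.0193). Psat1, the aminotransferase of the next step, had levels of 10.88, 10.19 and 11.05 at 1054.2 mg/kg, against 8.06, 9.15, 10.00, 9.08 and 8.76 in controls. These groups did not overlap either, and the change was 1.70 ± 0.37 (3.24-fold, adjusted p 0.0121). Psph, the phosphatase that releases serine, had levels of 9.03, 9.40 and 9.41 at 1054.2 mg/kg, against 8.23, 8.36, 8.95, 8.50 and 8.51 in controls. Its lowest dosed rat was 0.08 above the highest control, and the change was 0.77 ± 0.20 (1.70-fold, adjusted p 0.0337).

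Below the highest dose the same enzymes overlapped their controls. Mean Phgdh levels were 9.44 ± 0.35, 9.39 ± 0.11, 9.57 ± 0.29 and 9.85 ± 0.54 at 66, 132, 263.6 and 527.1 mg/kg (SD, n = 3 each), with a control mean of 9.01 ± 0.67 (SD, n = 5). Mean Psat1 levels were 9.84 ± 0.36, 9.52 ± 0.67, 9.84 ± 0.45 and 9.89 ± 0.67 in the same order, with a control mean of 9.01 ± 0.70. Mean Psph levels were 8.80 ± 0.18, 8.91 ± 0.42, 8.61 ± 0.45 and 8.94 ± 0.21, with a control mean of 8.51 ± 0.27, and the 263.6 mg/kg mean was the lowest of the dosed groups. The changes at 527.1 mg/kg were 0.83 ± 0.30 for Phgdh, 0.88 ± 0.37 for Psat1 and 0.43 ± 0.20 for Psph, with adjusted p of 0.184, 0.278 and 0.345. For each of the 3 enzymes the ranges of neighbouring doses overlapped.

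Asns, which makes asparagine from aspartate and glutamine, gave the widest spread between control rats of the 10 genes, each read from its highest probe set. Its levels were 9.89, 9.70 and 10.69 at 1054.2 mg/kg, against 7.26, 8.72, 9.37, 8.42 and 8.25 in controls. The groups did not overlap, and the change was 1.69 ± 0.40 (3.23-fold, adjusted p 0.0203). The controls themselves spanned 2.12 log2 units, more than the change. Mean levels were 9.07 ± 0.55, 9.13 ± 0.81, 9.40 ± 0.44 and 9.50 ± 0.48 at 66, 132, 263.6 and 527.1 mg/kg (SD, n = 3 each), each range overlapping that of the controls and of the neighbouring dose. The change at 527.1 mg/kg was 1.10 ± 0.40 (adjusted p 0.195).

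Trib3 encodes a pseudokinase that ATF4 and CHOP induce and that feeds back on ATF4 activity. The probe set with the highest level, 1370695_s_at, read 9.53, 9.53 and 10.20 at 1054.2 mg/kg, against 8.03, 8.54, 9.57, 8.64 and 8.26 in controls. Of these dosed rats 1 lay above the highest control, replicate 3. The change was 1.15 ± 0.30 (adjusted p 0.0399). The other probe sets gave 1.70 ± 0.44 (1370694_at, adjusted p 0.0360) and 1.76 ± 0.43 (1386321_s_at, adjusted p 0.0285). Only 1370694_at separated the groups fully, with 9.24, 9.47 and 9.91 at 1054.2 mg/kg, against 6.90, 8.21, 9.21, 7.52 and 7.38 in controls. All 3 probe sets had their highest control value in control replicate 3. The means of 1370695_s_at at 66, 132, 263.6 and 527.1 mg/kg were 8.96 ± 0.19, 8.97 ± 0.58, 9.21 ± 0.51 and 9.58 ± 0.38 (SD, n = 3 each), with a control mean of 8.61 ± 0.59 (SD, n = 5). Within 132 mg/kg the probe sets 1370694_at and 1386321_s_at spread most, with replicate 2 at 9.81 and 9.61 and the other two rats between 7.72 and 8.25.

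Ddit4 encodes REDD1, an inhibitor of the growth kinase complex mTORC1. Its levels were 9.08, 9.0 and 9.11 at 527.1 mg/kg and 8.95, 8.61 and 9.36 at 1054.2 mg/kg, against 7.26, 6.70, 7.99, 7.37 and 7.60 in controls. Both dose groups lay wholly above the controls, and the changes were 1.68 ± 0.31 (adjusted p 0.00697) at 527.1 mg/kg and 1.59 ± 0.31 (adjusted p 0.00602) at 1054.2 mg/kg. At 66 mg/kg the rats had 8.26, 7.95 and 8.65, and the change of 0.90 ± 0.31 had an unadjusted p of 0.00915 and an adjusted p of 1. At 132 and 263.6 mg/kg the changes were 0.72 ± 0.31 and 0.80 ± 0.31, and both groups, like the 66 mg/kg group, overlapped the controls. The 263.6 mg/kg rats ranged from 7.35, below the control mean of 7.38, to 9.12, just above the highest 527.1 mg/kg rat.

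Ddit3 encodes CHOP, a transcription factor that ATF4 induces under prolonged stress. Its levels were 8.46, 8.06 and 8.26 at 1054.2 mg/kg, against 8.25, 8.39, 8.42, 8.06 and 8.22 in controls. The groups overlapped, and the change was -0.01 ± 0.12 (adjusted p 0.985). The changes at the other doses lay between -0.07 and 0.08, with an SE of 0.12.

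Sesn2 encodes sestrin 2, a leucine sensor that restrains mTORC1. Its levels were 8.87, 8.85 and 8.40 at 1054.2 mg/kg, against 8.48, 8.46, 8.45, 8.13 and 8.46 in controls. Replicate 3, the rat with the highest Asns, Psat1, Phgdh, Trib3 and Ddit4 at this dose, had the lowest Sesn2 there. At 66, 132, 263.6 and 527.1 mg/kg the means were 8.48 ± 0.14, 8.51 ± 0.28, 8.48 ± 0.39 and 8.66 ± 0.37 (SD, n = 3 each), with a control mean of 8.40 ± 0.15 (SD, n = 5). The change at 1054.2 mg/kg was 0.31 ± 0.18 (adjusted p 0.442). The dimmer probe set, 1396901_at, was below the array median in every rat and changed by 0.09 ± 0.13 (adjusted p 0.830).

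Fgf21 had levels of 9.65, 8.50 and 9.59 at 1054.2 mg/kg, against 7.68, 8.36, 9.24, 8.97 and 8.48 in controls. Dosed replicate 2 sat among the controls, and the change was 0.70 ± 0.34 (adjusted p 0.330). The means at 263.6, 527.1 and 1054.2 mg/kg were 9.39 ± 0.37, 9.40 ± 0.43 and 9.25 ± 0.65 (SD, n = 3 each). The means at 66 and 132 mg/kg were 8.72 ± 0.64 and 8.73 ± 0.38, near the control mean of 8.54 ± 0.60 (SD, n = 5). The 263.6 and 132 mg/kg rats did not overlap (lowest 9.16 and highest 9.08), but the step between these doses was not itself tested. The changes from control at 263.6 and 527.1 mg/kg were 0.85 ± 0.34 and 0.86 ± 0.34 (adjusted p 0.303 and 0.240).

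At 527.1 mg/kg, 2 of the 13 probe sets rose (Atf4 and Ddit4) and 0 fell, where 1.19% of all probe sets rose and 0.483% fell. The median change over the 10 genes was 0.84 there. At 263.6, 132 and 66 mg/kg none of the 13 passed in limma, where 0.428%, 0.0677% and 0.00644% of all probe sets passed. The median changes of the 10 genes were 0.58, 0.37 and 0.32, and 5, 1 and 2 of the 10 had an unadjusted p under 0.05, where 11.9%, 14.9% and 3.24% of all probe sets did. All these contrasts share the same 5 control rats. Between 1054.2 and 527.1 mg/kg none of the 13 passed, with 0.0129% of all probe sets passing and 0 of the 10 genes at an unadjusted p under 0.05 (6.08% of all probe sets). The differences there were 0.82 ± 0.41 for Psat1 (adjusted p 0.841), 0.59 ± 0.44 for Asns (adjusted p 0.921) and -0.09 ± 0.35 for Ddit4 (adjusted p 0.992).

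**Figure D2:**
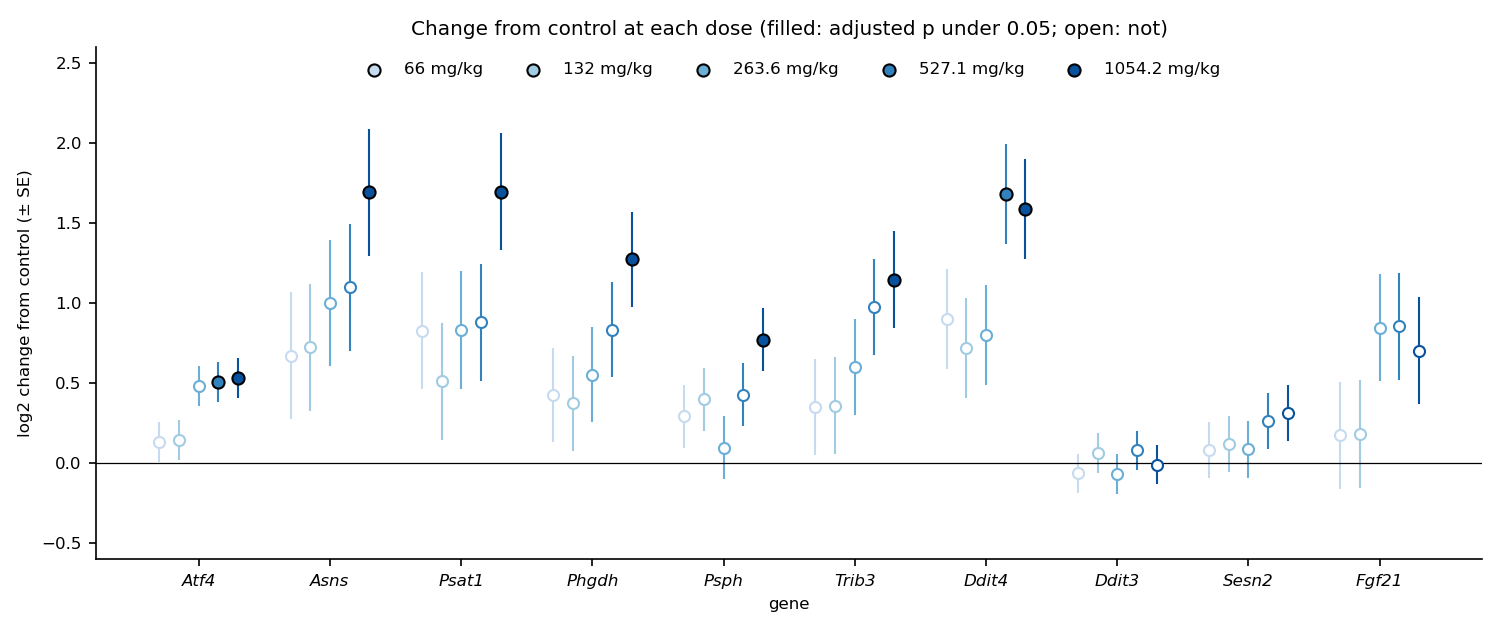
Change from control in log2 units (vertical axis, bars are ± SE from the fit over 20 arrays) for each gene at the 5 doses, with filled points where the adjusted p was under 0.05. Atf4 and Ddit4 were filled at 527.1 mg/kg, and these 2 with Asns, Psat1, Phgdh, Psph and Trib3 at 1054.2 mg/kg (1.70 ± 0.37 for Psat1), while Ddit3 stays near 0.

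The slope of the level on the rank of the dose uses all 20 rats. It passed and was positive for 8 of the 13 probe sets, standing for 6 genes, and none passed with a negative slope. Over all probe sets 2.97% passed with a positive slope and 2.08% with a negative one. The slope per dose step was 0.12 ± 0.02 for Atf4 (adjusted p 0.00144), 0.31 ± 0.06 for Ddit4 (adjusted p 0.00165) and 0.23 ± 0.05 for Trib3 (adjusted p 0.00619). It was 0.22 ± 0.05 for Phgdh (adjusted p 0.00669), 0.30 ± 0.06 for Asns (adjusted p 0.00699) and 0.27 ± 0.06 for Psat1 (adjusted p 0.0145). Psph (0.12 ± 0.04, adjusted p 0.0592) and Fgf21 (0.18 ± 0.06, adjusted p 0.0681) did not pass, nor did Sesn2 (0.06 ± 0.03, adjusted p 0.289) or Ddit3 (0.01 ± 0.02, adjusted p 0.938).

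The calls at 1054.2 mg/kg rested on 1 rat more than on the others. Without replicate 3 of that dose 0 of the 13 probe sets passed, while 405 of all probe sets (1.30%) still did. The Asns change was then 1.39 (adjusted p 0.150). Without replicate 2 the count was 5 of 13, where 1.70% of all probe sets passed. Leaving out control replicate 1, 2, 4 or 5 gave 4 or 5 of 13. Psph kept its call in 2 of the 8 such fits, Atf4 in 5, the Trib3 probe sets in 1 or 2, and Asns, Psat1, Phgdh and Ddit4 in 7. At 527.1 mg/kg Ddit4 passed in all 8 fits (adjusted p between 0.00701 and 0.0438), and Atf4 in 2. The trend of Atf4, Asns, Phgdh, Ddit4 and all 3 Trib3 probe sets passed in each of the 20 fits that left out 1 rat, and that of Psat1 in all but the fit without 1054.2 mg/kg replicate 3 (adjusted p 0.0539).

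Rats of the same dose differed in a shared way in several of these genes. Among controls, replicate 1 had the lowest and replicate 3 the highest Asns, Psat1, Phgdh, Psph, Trib3 and Fgf21. Among replicates 1 to 3, Asns, Psat1, Phgdh, Trib3 and Ddit4 were each highest in the rat numbered 3 in 5 of 6 groups. Over all probe sets, deviations of same-numbered arrays correlated little (0.0445 on average). That average cannot show whether the numbers pair the rats in these genes. To measure the shared variation apart from dose, the group mean was subtracted from each rat's level, and the deviation of Asns was set against that of each other gene over the 20 rats, with 100000 permutations within groups and adjustment over the 9 relations. The deviation of Asns correlated most with Psat1 (Pearson r = 0.92, Spearman rho = 0.93), Trib3 (r = 0.88, rho = 0.80) and Phgdh (r = 0.87, rho = 0.82), each with a permutation adjusted p of 0.00021 for r. The adjusted p for rho was 9e-05, 0.00132 and 0.000405. Fgf21 followed (r = 0.73, adjusted p 0.00594, rho = 0.65, adjusted p 0.0195), then Psph (r = 0.64, adjusted p 0.0221, rho = 0.56, adjusted p 0.0457).

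Without control replicates 1 and 3, the rats farthest from their group mean in Asns, the Pearson r was 0.88 for Psat1, 0.85 for Trib3, 0.78 for Phgdh, 0.59 for Fgf21 and 0.53 for Psph. Ddit4 passed by rho only (r = 0.50, permutation adjusted p 0.0705, rho = 0.55, adjusted p 0.0457). Atf4 (r = 0.39, permutation adjusted p 0.113, rho = 0.47, adjusted p 0.0768) passed by neither measure. Nor did Ddit3 (r = 0.46, permutation adjusted p 0.120, rho = 0.47, adjusted p 0.111) or Sesn2 (r = 0.20, adjusted p 0.415, rho = 0.16, adjusted p 0.541). Without those rats r was 0.46 for Ddit4 and Atf4, 0.47 for Ddit3 and 0.28 for Sesn2. Whether any of these correlations differ from each other was not tested. The rat of highest Asns at 132 mg/kg, replicate 2, is also the array with the largest 3′ to 5′ difference, and its part in these relations was not tested.

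**Figure D3:**
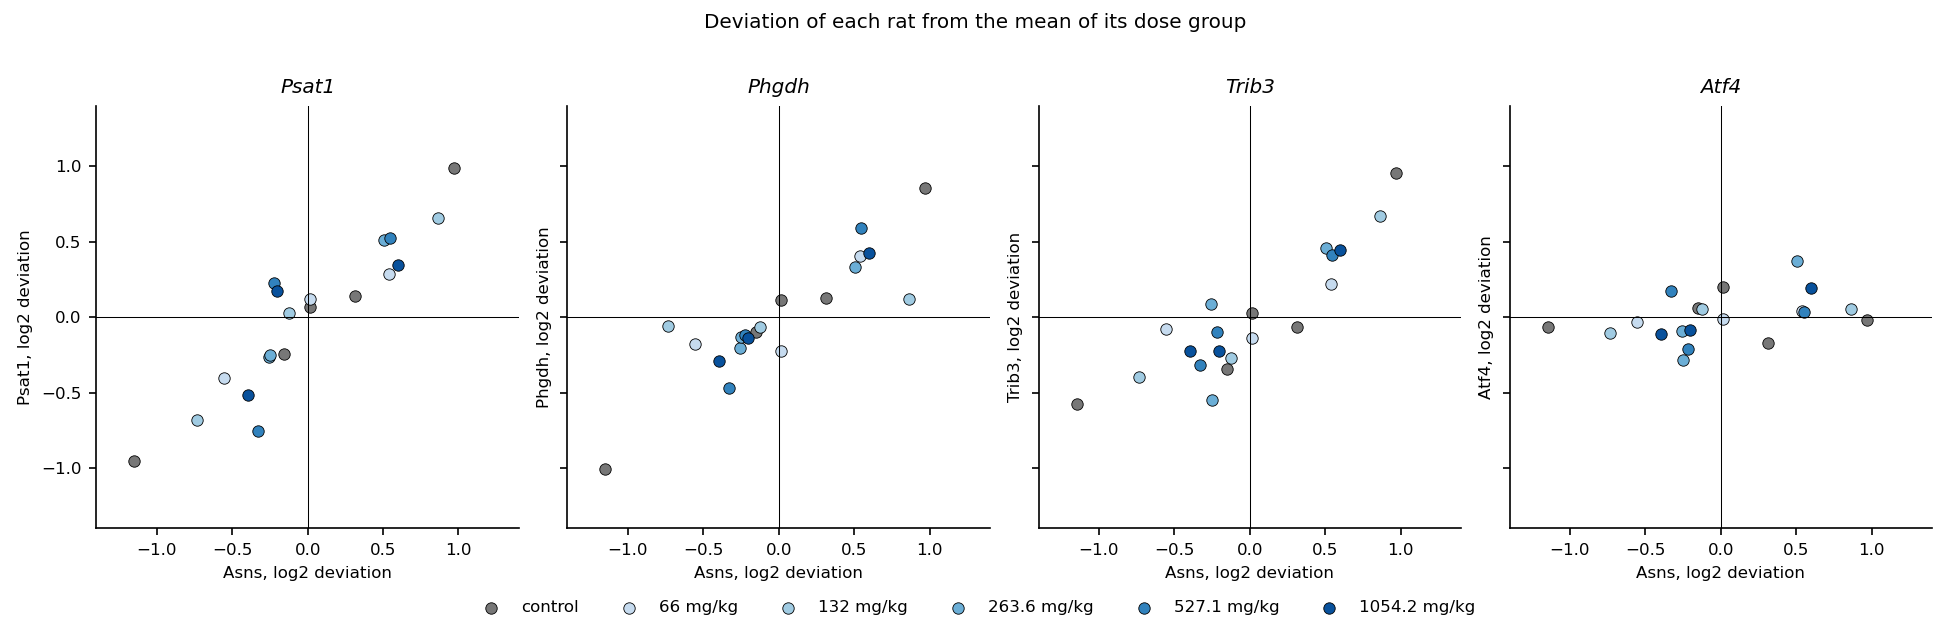
Deviation of each of the 20 rats from its dose group mean, in log2 units, for Asns (horizontal axis) against Psat1, Phgdh, Trib3 and Atf4 (vertical axes), coloured by dose. Control replicates 3 and 1 lie at the upper and lower ends for Psat1 (r = 0.92), Phgdh and Trib3, and Atf4 (r = 0.39) shows little spread.

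Among genes outside the group of 10, 12331 probe sets with 1 symbol and a mean level at or above the median were searched. The levels over the 20 rats most like those of Asns were Nupr1 (r = 0.90), a stress-induced chromatin protein, Mars1 (0.89) and Yars1 (0.88), the methionyl- and tyrosyl-tRNA synthetases, Eif4ebp1 (0.88), a repressor of cap-dependent translation, and Slc3a2 (0.87), the heavy chain of several amino acid transporters. With group means subtracted they were Plekha1 (0.96), a phosphoinositide-binding protein, Gars1 (0.92), the glycyl-tRNA synthetase, Mars1 (0.92), Nupr1 (0.89) and Rrp1b (0.88), a nucleolar protein. Plekha1 moved with Asns between rats of a dose while its own change at 1054.2 mg/kg was 0.13 ± 0.22 (adjusted p 0.854). Rrp1b changed by -0.29 ± 0.13 (adjusted p 0.292). These are descriptions over the same 20 arrays and depend on the most extreme rats for part of their size. For the deviations, r without control replicates 1 and 3 was 0.93 for Plekha1 and 0.83 for Nupr1. For the levels, r for Nupr1 was 0.83 without control replicate 1 and 1054.2 mg/kg replicate 3. Those were the rats farthest from the median Asns level.

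Of 28 other measured genes known as ATF4 targets, 4 rose and 1 fell at 1054.2 mg/kg, with a median change of 0.22. Of all probe sets 1.86% rose and 1.44% fell at that dose. Slc7a11, the cystine transporter, had levels of 6.53, 6.34 and 7.83 at 1054.2 mg/kg, against 5.45, 5.71, 6.25, 5.48 and 5.61 in controls. The change was 1.20 ± 0.30 (adjusted p 0.0303), with replicate 3 far above the other dosed rats. Eif4ebp1 rose by 0.72 ± 0.14 (adjusted p 0.00547), the transcription factor Atf3 by 0.67 ± 0.17 (adjusted p 0.0324), and Slc7a5, the leucine transporter, by 0.64 ± 0.16 (adjusted p 0.0300). Slc7a5 stood outside the rule for named genes and was named after its values were seen. Cth, which makes cysteine from cystathionine, moved the other way, with 12.84, 13.06 and 12.29 at 1054.2 mg/kg, against 13.73, 13.40, 13.42, 13.44 and 13.36 in controls (change -0.74 ± 0.16, adjusted p 0.0101). Of the 28, 1 rose at 527.1 mg/kg, as did 1.19% of all probe sets. This gene was Chac1, a glutathione-degrading enzyme, with a change of 1.05 ± 0.22 (adjusted p 0.0158), also named after its value was seen. Without 1054.2 mg/kg replicate 3, none of Slc7a11, Eif4ebp1, Atf3, Slc7a5 or Cth passed at 1054.2 mg/kg.

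A list of 20 measured genes held cytosolic aminoacyl-tRNA synthetases, which charge tRNAs and include known ATF4 targets, and the tRNA exporter Xpot. Of these 20 genes, 19 had a positive change at 1054.2 mg/kg. Their median was 0.26, against -0.005 over all probe sets. These signs come from the same rats and are not independent. Of the 20, 1 passed, as did 3.30% of all probe sets. This was Aars1, with 11.99, 11.96 and 12.00 at 1054.2 mg/kg, against 11.35, 11.45, 11.77, 11.55 and 11.65 in controls (change 0.43 ± 0.11, adjusted p 0.0299). It lost its call in 6 of the 8 fits without 1 rat, among them the one without 1054.2 mg/kg replicate 3.

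Among 20 measured genes that use serine or glycine or carry 1-carbon units, 2 rose and 1 fell at 1054.2 mg/kg, and the median change was -0.02. Of all probe sets 1.86% rose and 1.44% fell there. Gnmt, the glycine N-methyltransferase that consumes methyl groups, fell most clearly. Its levels were 12.48, 12.58 and 12.37 at 1054.2 mg/kg, against 13.17, 13.13, 13.29, 13.30 and 13.15 in controls. The groups were wide apart, the change was -0.73 ± 0.10 (adjusted p 0.00016), and it passed in all 8 fits without 1 rat (highest adjusted p 0.00364). Shmt1, the cytosolic serine hydroxymethyltransferase, rose by 0.42 ± 0.09 (adjusted p 0.0117) and lost its call without 1054.2 mg/kg replicate 3. Sdsl, a serine dehydratase-like gene, rose by 0.44 ± 0.12 (adjusted p 0.0413), and failed in 5 of the 8 fits, that without replicate 3 included.

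Sds, the serine dehydratase that breaks serine down to pyruvate, had levels of 7.56, 7.44 and 6.99 at 527.1 mg/kg, against 9.01, 8.15, 8.06, 8.69 and 8.05 in controls. The groups did not overlap, and the change was -1.06 ± 0.24 (adjusted p 0.0245). At 132 mg/kg Sds also fell, by 1.35 ± 0.24 (adjusted p 0.0288), and the 3′ minus 5′ difference averaged 2.31 at that dose, against 1.64 in controls. At 66 and 263.6 mg/kg none of the 20 genes passed, and the lowest changes among them were -1.07 and -0.95. At 1054.2 mg/kg the Sds levels were 7.34, 8.34 and 7.44 and the change of -0.68 ± 0.24 did not pass (adjusted p 0.138). Mthfd2, the mitochondrial folate enzyme that ATF4 is known to induce, had 8.13, 8.27 and 8.83 at 1054.2 mg/kg, against 7.11, 7.33, 8.02, 7.11 and 7.14 in controls, and its change of 1.07 ± 0.32 did not pass (adjusted p 0.0755). Sds and Mthfd2 stood outside the rule for named genes and were chosen after their values were seen.

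**Figure D4:**
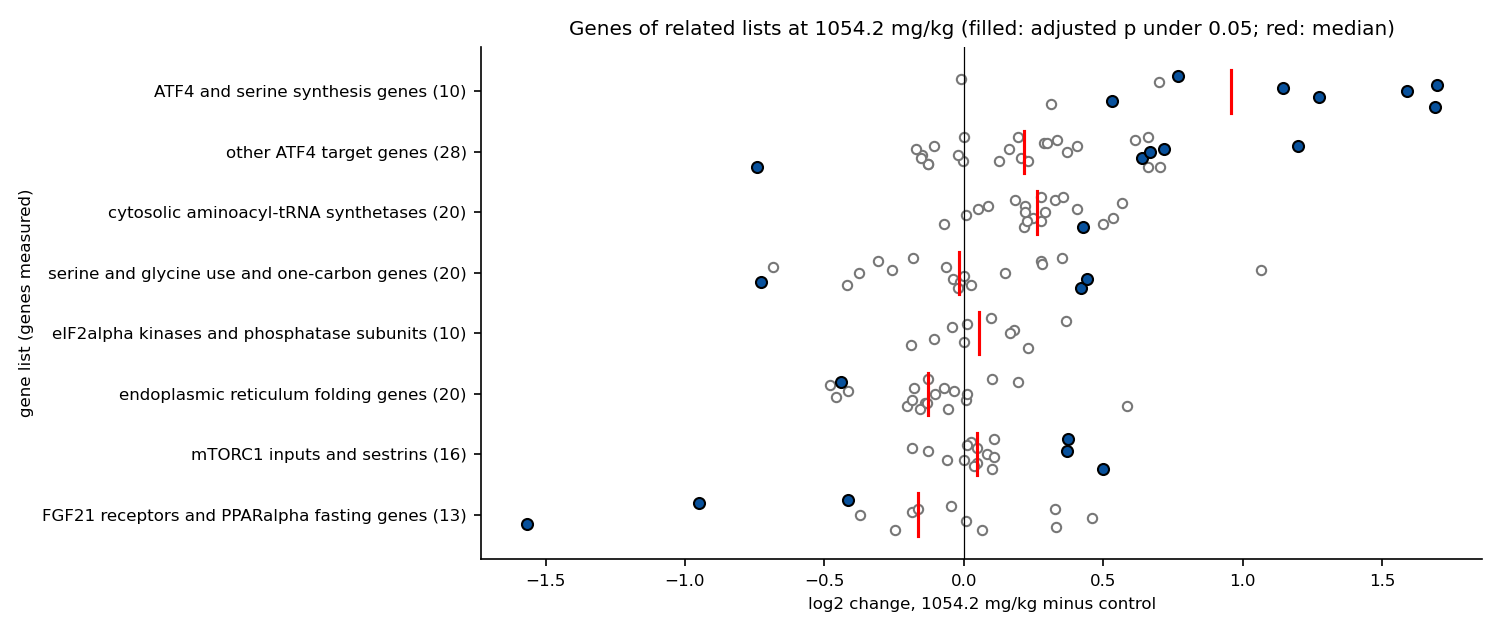
Change at 1054.2 mg/kg minus control in log2 units (horizontal axis) for each measured gene of 8 lists, with filled points where the adjusted p was under 0.05 and a red line at the list's median. The 10 ATF4 and serine synthesis genes have a median of 0.96, the other ATF4 targets 0.22 and the endoplasmic reticulum folding genes -0.13.

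A list of eIF2alpha kinases and phosphatase subunits also held eIF2alpha itself (Eif2s1), Impact, Gcn1 and Dnajc3. Of its 10 genes 0 passed in limma at 1054.2 mg/kg. An unadjusted p under 0.05 was found for 1 of them, as for 15.1% of all probe sets. This was Ppp1r15b, a regulatory subunit of the eIF2alpha phosphatase, with a change of 0.37 ± 0.13 (adjusted p 0.142). The median of the 10 was 0.05. Of 20 endoplasmic reticulum folding genes 0 rose and 1 fell, with a median of -0.13, where 1.86% of all probe sets rose and 1.44% fell. The gene that fell was Dnajb11, a co-chaperone of BiP, with 9.92, 9.90 and 9.85 at 1054.2 mg/kg, against 10.20, 10.60, 10.25, 10.32 and 10.30 in controls (change -0.44 ± 0.11, adjusted p 0.0236). It lost its call without dosed replicate 2 or 3 or control replicate 2.

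The list of 16 genes around mTORC1 held inputs, parts of the complex itself (Mtor and Rptor), Tfeb, and relatives of Sesn2. Its median change was 0.05 at 1054.2 mg/kg. Where 1.86% of all probe sets rose and 1.44% fell, 0 of the 16 fell and 3 rose. They were Deptor (0.50 ± 0.13, adjusted p 0.0310), an inhibitor in both mTOR complexes, Flcn (0.37 ± 0.10, adjusted p 0.0412), the folliculin GTPase activator, and Nprl2 (0.37 ± 0.09, adjusted p 0.0281), a subunit of the GATOR1 complex. Each lost its call in 4 to 7 of the 8 fits without 1 rat.

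Of 13 measured genes for FGF21 receptors and for fasting targets of PPARalpha, 0 rose and 3 fell at 1054.2 mg/kg, with a median of -0.16. Of all probe sets 1.86% rose and 1.44% fell there. Angptl4, a secreted lipoprotein lipase inhibitor and PPARalpha target, had levels of 10.19, 9.84 and 9.46 at 1054.2 mg/kg, against 11.50, 11.62, 11.48, 11.52 and 10.87 in controls. The groups did not overlap, the change was -1.57 ± 0.24 (adjusted p 0.000723), and it passed in all 8 fits without 1 rat. Pdk4, a kinase that shuts down pyruvate oxidation in fasting, fell by 0.95 ± 0.25 (adjusted p 0.0433), and Fgfr4, the main FGF receptor of hepatocytes, fell by 0.41 ± 0.10 (adjusted p 0.0306). Both lost their call in 6 or 7 of the 8 fits, that without dosed replicate 3 among them. The Fgf21 mean itself was 0.70 above the control mean without passing.

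Markers of other liver cells were read in the same fit, in which 1.86% of all probe sets rose and 1.44% fell at 1054.2 mg/kg. At 1054.2 mg/kg 6 of 8 Kupffer cell markers fell, and their summed linear intensity lay between 8130 and 8335, against 10404 to 14188 in controls. Of 10 stellate cell and fibroblast markers 4 fell (sum 3413 to 3595 at 1054.2 mg/kg, 4420 to 6111 in controls), and of 8 endothelial markers 2 fell (sum 4324 to 5406 at 1054.2 mg/kg, 5376 to 7152 in controls). Of 9 hepatocyte markers 0 passed in limma and 0 had an unadjusted p under 0.05, and their sum lay between 201359 and 203128 at 1054.2 mg/kg and between 207980 and 212074 in controls. Of 7 cholangiocyte markers 1 rose (Epcam), and the sum over the 7 was 4282 to 4826 at 1054.2 mg/kg, 3311 to 4049 in controls. Krt8 was by far the brightest of them (mean control level 11.43, Epcam 9.23) and so weighs most in that sum. Of the 7, 3 had a mean level below the median of all probe sets. No T and NK cell marker of 7 passed in limma, with 1 at an unadjusted p under 0.05 (sum 514 to 615 at 1054.2 mg/kg, 581 to 664 in controls). No neutrophil marker of 4 passed, with 0 at an unadjusted p under 0.05 (sum 161 to 221 at 1054.2 mg/kg, 185 to 249 in controls). Of 10 pancreas markers 1 fell (Cela1), and the sum over the 10 was 1234 to 1542 at 1054.2 mg/kg, 1911 to 2282 in controls. Cela1, with a mean control level of 10.65, was by far the brightest of the 10 and weighs most in that sum. Of these last 3 lists 5 of 7, 3 of 4 and 8 of 10 markers had a mean level below the median of all probe sets. The part of these shifts in the changes of the ATF4 and serine synthesis genes was not tested.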

How the data were processed

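The authors deposited RMA-normalised log2 intensities, 1 per probe set and array, per the submitters' processing notes. The sources used here state neither the RMA version nor whether all arrays were normalised as 1 set. Of 31099 probe sets, 57 Affymetrix controls were left out. By the array annotation 20826 of the others had 1 gene symbol, 436 had several and 9780 had none. Groups came from the labelled dose.

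limma 3.58.1 in R 4.3.3 estimated a mean for every dose group from all 20 arrays (residual degrees of freedom 14, prior 5.75). P-values were two-sided, adjusted by Benjamini-Hochberg over 31042 probe sets, with a threshold of 0.05. The trend was the slope on dose rank. The limma p-values set a difference or slope against the residual spread between arrays, with 1 array per rat. The number of arrays limits precision. The fit was tested on simulated data with known changes. Correlations used scipy 1.17.1 and numpy 2.4.6.

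The genes and lists were chosen with earlier results of these data known. Per list, up to 4 genes with the largest change past the threshold at 1054.2 mg/kg were named (the largest where none passed). From each search the 5 genes outside the group most like Asns were named, leaving out LOC and RGD symbols. Alternatives were array centring, renewed quantile normalization, a 2-group fit, filters on dim or repeated probe sets, an intensity trend with robust moderation, array weights, RNA quality as a covariate, the replicate number as a block, another dose spacing, leaving out each rat and, chosen after seeing the data, leaving out both arrays of largest 3′ minus 5′ difference.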

Additional observations from a re-analysis of the deposited data

Results flagged for a closer look

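Sesn2 in control rats was picked out because 1 rat stood apart. Control replicate 4 read 8.13, and the other 4 control rats lay between 8.45 and 8.48. The gap to the nearest rat was 0.9169 of the whole range, above Dixon's critical value of 0.71 for 5 samples. Chance picks out about 1 in 20 groups, and 13 probe sets were checked. The other 12 ratios lay between 0.3411 and 0.6953.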

How the results depend on the processing

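Of the 13 probe sets, 9 passed at 1054.2 mg/kg, 2 at 527.1 mg/kg and 8 in the trend. At 1054.2 mg/kg the count was 5 with an intensity trend and robust moderation and 5 with the replicate block, and leaving out 1 rat gave 0 to 9. At 527.1 mg/kg it was 1 with the replicate block, and 1 to 4 without 1 rat. At 263.6 mg/kg it was 2 with array weights. The cause was not tested. Other alternatives gave 7 to 10, 2 to 3 and 7 to 10 in the 3 comparisons.

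Over all probe sets, the 1024 calls at 1054.2 mg/kg became 6439 with array weights, 614 with the replicate block and 405 to 1069 without 1 rat. The 520 at 527.1 mg/kg became 1188, 283 and 212 to 509 in the same order, 826 in a 2-group fit and 839 with RNA quality. The 1569 of the trend became 2681 with array weights, 930 with the block and 1092 to 1919 without 1 rat. The 133 at 263.6 mg/kg ranged over 38 to 885, the 21 at 132 mg/kg over 6 to 1482, the 2 at 66 mg/kg over 0 to 12, and the 4 between the highest doses over 0 to 656. The replicate numbers do not pair the rats: deviations of same-numbered arrays correlated by 0.0445 on average (between -0.352 and 0.4723), and 7 of 18 arrays correlated best with their own number.

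At 1054.2 and 527.1 mg/kg against control and in the trend, the signs that turned under these alternatives were those of Ddit3 and the dim Sesn2 probe set, none of them called. Ddit3 at 1054.2 mg/kg was 0.0049 with centring, 0.015 with array weights, and between -0.1098 and 0.0889 without 1 rat (0.02 and 0.0268 among these). Sesn2 there was -0.0986 with array weights and between -0.0136 and 0.222 without 1 rat. At 527.1 mg/kg Ddit3 was -0.0041 with the block, and Sesn2 was between -0.1682 and 0.0812 without 1 rat (0.0229 among these). The Ddit3 trend was -0.0008 after quantile normalization, -0.0049 with the block, and between -0.003 and 0.0176 without 1 rat (-0.0018 and -0.0001 among these). In the other comparisons, where none of the 13 passed, leaving out 1 rat also turned signs, as for Fgf21 (lowest -0.1904 at 66 mg/kg and -0.0334 at 132 mg/kg), Psph (-0.1201 at 263.6 mg/kg), brighter Sesn2 (-0.0306 at 132 and -0.1068 at 263.6 mg/kg), and, between the highest doses, Atf4 (-0.0797), Trib3 (-0.0938 and -0.0518), brighter Sesn2 (-0.1527), Ddit4 (highest 0.0887), Ddit3 (highest 0.0086) and Fgf21 (highest 0.2196). Ddit3 (66 and 132 mg/kg) and the dim Sesn2 probe set (132 mg/kg) turned too.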
